A study of Mus musculus with 6 samples.

Results

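Heat shock proteins and their partner chaperones were examined in whole testis of 3 inbred mouse strains. The list holds 42 genes, chosen by symbol from the HSP70, HSP90 and HSP110, small heat shock protein, chaperonin and DNAJ families together with heat shock factors and co-chaperones. A gene was read from probe sets (groups of probes for one transcript on the array) whose platform annotation gave its symbol alone. Where a gene had several, the probe set of the highest mean intensity over the 6 arrays was used and the others served as a check. In this way 40 of the 42 genes were measured, out of 18193 genes with a probe set of their own. Hsf1 and Hsp90ab1 were not analysed here. The filter on dim probe sets, which asked for at least 2 of the 6 arrays above the 40th percentile of their array, left out none of the 40.

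The study hybridised testis RNA of mice aged 8 weeks to GeneChip arrays, 1 array per mouse. The strains were C57BL/6, AKR/N and MRL/MpJ-+/+, called MRL/MpJ below, with 2 mice each. The labels name no treatment, transgene or heat exposure in any strain, so the values are levels without a named treatment. Median probe set intensity was 28.0 to 30.7 per array. Pearson correlations across probe sets, which are not independent replicates, were 0.980 to 0.985 between mice of a strain and 0.960 to 0.974 between strains. Of the marker genes, all 15 of spermatocytes, 15 of round spermatids, 15 of elongating spermatids and 6 of Leydig cells with a probe set passed the filter on dim probe sets, as did 13 of 14 of Sertoli cells. No marker gene was listed at 0, though the Sertoli marker Amh fell to 1.13.

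Chaperones bind unfolded or partly folded proteins and keep them from aggregating. HSP70 proteins do so in cycles of ATP hydrolysis that DNAJ proteins (HSP40) start and nucleotide exchange factors such as the BAG and HSP110 proteins end, while HSP90 matures signalling proteins and the ring-shaped chaperonins fold proteins in a closed chamber. Heat shock factors bind heat shock elements, repeats of the unit GAA in alternating orientation, and raise transcription of many of these genes under heat and other stress. The testis is kept below body temperature and has chaperones of its own in male germ cells, among them Hspa2, Hspa1l, Hspa4l, Hspb9 and several DNAJ genes. MRL/MpJ is known for spermatocytes that withstand experimental cryptorchidism and heat better than those of other strains.

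Most chaperone genes differed little between the strains. Intensities are linear units on a scale shared by the arrays, and differences are given as log2(intensity + 16), a scale that understates the difference of dim probe sets. A difference is the first-named strain minus the second, so a negative value is a lower level in the first. The range of the 3 strain means was under 0.2 on this scale for 25 of the 40 genes. Its median was 0.14, beside a median of 0.12 for the largest gap between mice of one strain, and in 19 genes that gap was wider than the range of the strain means. These ranges and gaps were not computed over all genes. Over all 14461 tested genes the lower and upper quartiles of the difference were -0.18 and 0.20 in MRL/MpJ against C57BL/6. They were -0.17 and 0.19 in AKR/N against C57BL/6, and -0.17 and 0.17 in MRL/MpJ against AKR/N. Small differences were thus common among all genes as well. A quartile of 1 comparison and a range over 3 strain means are unlike measures, so they cannot be set side by side. Whether chaperone genes differed less than other genes was not tested. A gene is called different where limma's moderated test, fitted to all 6 arrays and 29692 probe sets, gave a Benjamini-Hochberg adjusted p under 0.05. By this rule 10 of the 40 genes were called in at least 1 of the 3 comparisons between strains. The like share of all genes was not computed, so this count cannot be set beside it, and shares are given by comparison below. Each strain had 2 mice, called replicates 1 and 2. The p-values rest on the spread between mice of a strain, pooled over the 3 strains. That spread was drawn toward a trend over all tested probe sets, which had the larger weight (7.58 prior beside 3 residual degrees of freedom).

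In MRL/MpJ against C57BL/6, 8 of 40 chaperone genes were called, beside 12.2% of the 14461 genes tested. Hspa4, Hspb1, Hspd1 and Hspe1 were higher in MRL/MpJ, 4 genes beside 6.1% of all genes. Dnajb4, Dnajb7, Dnajc5b and Bag3 were lower, 4 genes beside 6.12%. In AKR/N against C57BL/6, 4 of 40 were called beside 11.9% of all genes: Hspb1 and Hspe1 were higher (2 genes, beside 6.39%), and Dnajb2 and Bag3 were lower (2 genes, beside 5.5%). In MRL/MpJ against AKR/N, 4 of 40 were called beside 8.75% of all genes, with Dnajb2 higher (1 gene, beside 3.68%) and Dnajb4, Dnajb7 and Bag1 lower (3 genes, beside 5.07%). Each strain enters 2 of the 3 comparisons, which therefore share its arrays. The median difference over the 40 genes was -0.03, -0.01 and -0.00 in the 3 comparisons in this order, and over all tested genes it was 0.01 in each. Fitted without a trend of variance on mean level, the test called only Dnajb4 in the first comparison, Dnajb2 in the second and both of them in the third. With no filter on dim probe sets, the calls of Hspa4, Dnajc5b, Bag1 and, in both comparisons, Hspe1 were lost (adjusted p from 0.0613 to 0.107).

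**Figure D1:**
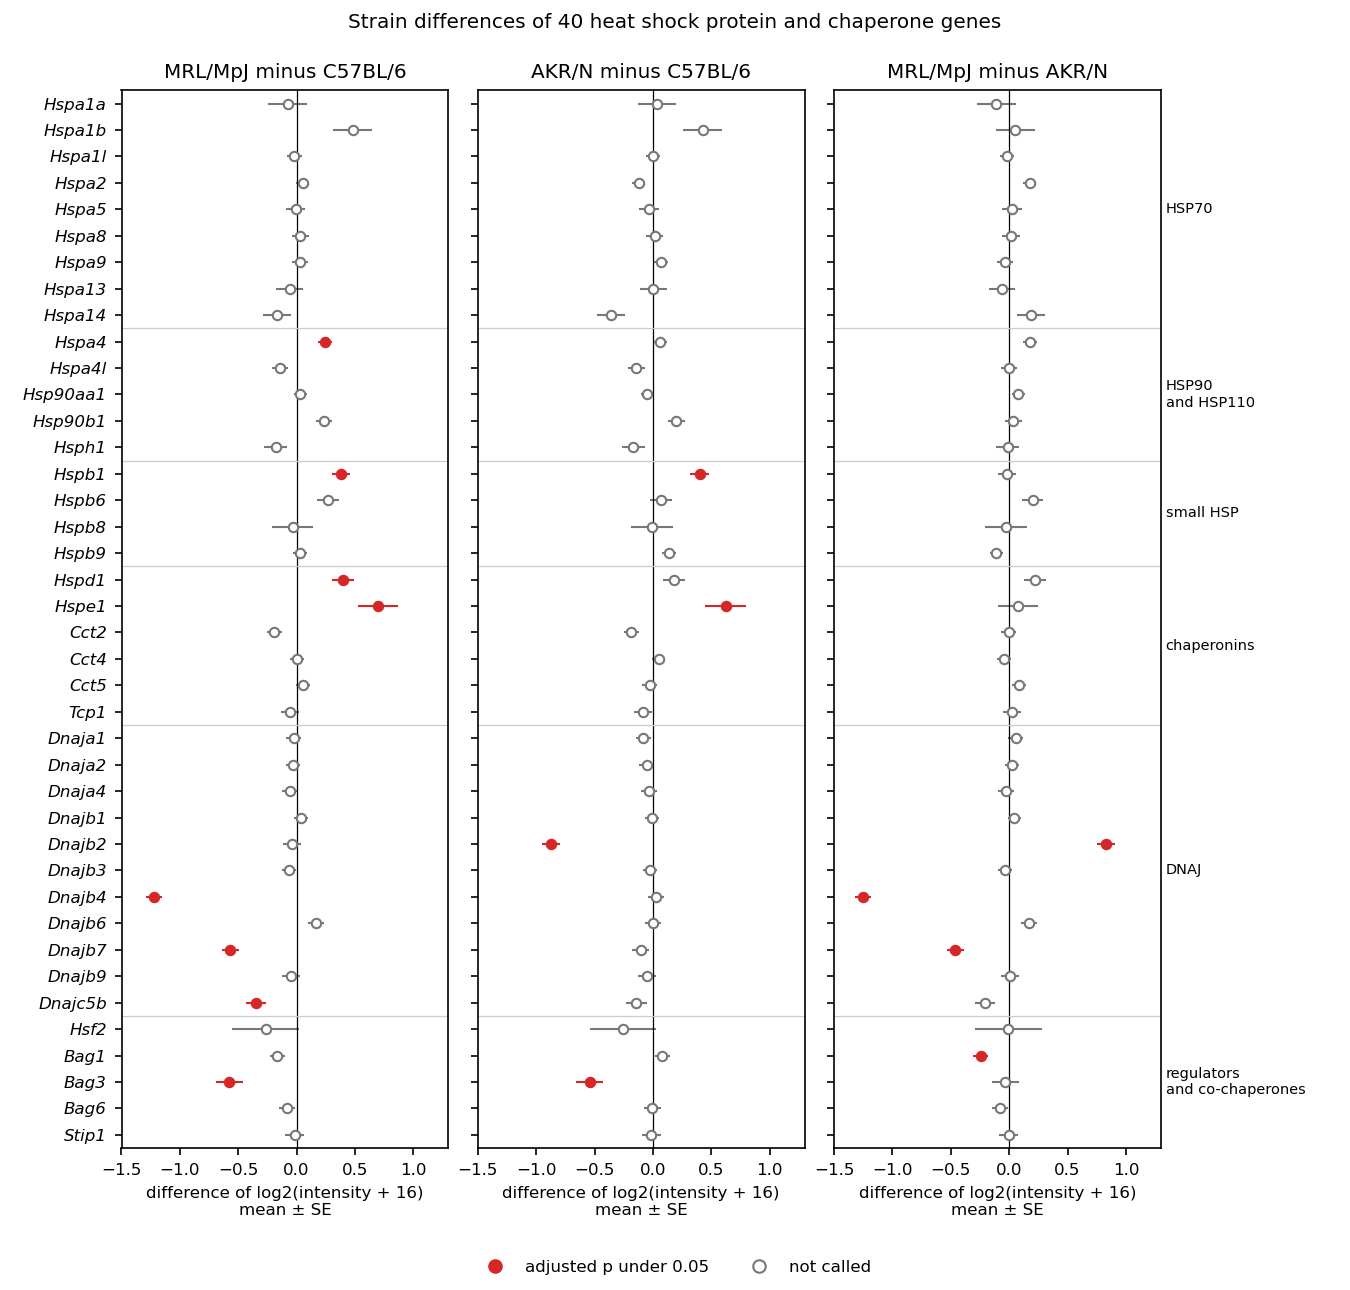
Difference in log2(intensity + 16) between strains for the 40 chaperone genes, 1 panel per comparison, with points for the fitted difference, bars for its standard error and filled red points for genes called at an adjusted p under 0.05. Most points lie close to 0, while Dnajb4 at -1.22 and -1.25 in the 2 comparisons with MRL/MpJ and Dnajb2 at -0.87 in AKR/N lie farthest from it.

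The clearest differences lay among the 11 DNAJ genes. Dnajb4, a cytosolic DNAJ protein that works with HSP70, was lower in MRL/MpJ than in both other strains. Its intensity was 1441 and 1486 in the C57BL/6 mice, 1534 and 1452 in the AKR/N mice and 614 and 622 in the MRL/MpJ mice. Both MRL/MpJ mice lay far below the 4 other mice, whose values overlapped between C57BL/6 and AKR/N. The strain means were 1464 ± 31.8, 1493 ± 57.8 and 618 ± 5.22 in that order (SD, n = 2 mice, as in all means given here). The log2 difference was -1.22 (SE 0.0676, limma adjusted p = 1.8e-06) against C57BL/6 and -1.25 (adjusted p = 2.09e-06) against AKR/N. AKR/N and C57BL/6 differed by 0.03 (95% interval -0.12 to 0.18). A second probe set of Dnajb4 (1451177_at) averaged 305 ± 31.2 in MRL/MpJ, 488 ± 16.3 in AKR/N and 588 ± 7.22 in C57BL/6. It was lower in MRL/MpJ as well, with differences of -0.91 from C57BL/6 (adjusted p = 0.000115) and -0.65 from AKR/N (adjusted p = 0.00186). The latter call of this probe set was lost without the variance trend (adjusted p = 0.0742). The third (1439524_at) was dim at means of 57.1 ± 9.14 (C57BL/6), 53.3 ± 8.77 (AKR/N) and 59.5 ± 9.73 (MRL/MpJ), and its difference between MRL/MpJ and C57BL/6 was 0.05 (adjusted p = 0.909). The mean of the 3 probe sets gave -0.70 against C57BL/6 and -0.59 against AKR/N, and both were called.

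Dnajb2, a DNAJ protein with ubiquitin-interacting motifs that hands HSP70 clients to the proteasome, was lower in AKR/N than in both other strains. It was measured at 908 and 955 in the C57BL/6 mice, 489 and 515 in the AKR/N mice and 871 and 939 in the MRL/MpJ mice. The AKR/N mice were well below all others, and the C57BL/6 and MRL/MpJ mice overlapped. AKR/N (mean 502 ± 18.5) was lower than C57BL/6 (mean 932 ± 33.3), with a difference of -0.87 (SE 0.0765, adjusted p = 4.66e-05), and MRL/MpJ (mean 905 ± 47.8) was higher than AKR/N by 0.83 (adjusted p = 0.000101). MRL/MpJ and C57BL/6 differed by -0.04 (95% interval -0.21 to 0.13). Dnajb2 had 1 probe set, so no other probe set bears on it.

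Dnajb7, a member of the DNAJB subfamily with high expression in testis, was also lower in MRL/MpJ. Its values were 1222 and 1134 in the C57BL/6 mice, 1104 and 1082 in the AKR/N mice and 824 and 755 in the MRL/MpJ mice. Both MRL/MpJ mice lay below every mouse of the other strains. The difference was -0.57 (SE 0.0749, adjusted p = 0.000862) against C57BL/6 and -0.46 (adjusted p = 0.00468) against AKR/N, with means of 1178 ± 61.8, 1093 ± 15.7 and 789.8 ± 48.8 in C57BL/6, AKR/N and MRL/MpJ. The calls for Dnajb4, Dnajb2 and Dnajb7 remained when any 1 of the 6 arrays was left out.

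Dnajc5b, a relative of the synaptic vesicle protein Dnajc5 found mainly in testis, showed a smaller difference. Its intensity was 3696 and 3823 in the C57BL/6 mice, 3384 and 3432 in the AKR/N mice and 2645 and 3290.2 in the MRL/MpJ mice. The MRL/MpJ mice were below the C57BL/6 mice but differed widely from each other, and 1 of them was close to the AKR/N mice. MRL/MpJ was lower than C57BL/6, with a difference of -0.35 (SE 0.0882, adjusted p = 0.031). The adjusted p rose to 0.0916 and 0.148 without C57BL/6 replicates 1 and 2, 0.0551 and 0.0555 without AKR/N replicates 1 and 2, and 0.171 without MRL/MpJ replicate 1, where the difference was -0.19.

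The other 7 DNAJ genes were not called in any comparison. Dnajb3, a DNAJ gene of male germ cells, was measured at 3545 and 3627 in the C57BL/6 mice, 3538 and 3496 in the AKR/N mice and 3296 and 3554 in the MRL/MpJ mice, with a difference of -0.07 (95% interval -0.20 to 0.07) between MRL/MpJ and C57BL/6. Dnajb1, the heat-inducible partner of HSP70, averaged 2883 ± 86.0 (C57BL/6), 2866 ± 38.7 (AKR/N) and 2957 ± 82.2 (MRL/MpJ), and MRL/MpJ and C57BL/6 differed by 0.04 (95% interval -0.09 to 0.17). Dnaja1, Dnaja2 and Dnaja4, which carry a zinc-finger region, Dnajb6, a suppressor of polyglutamine aggregation, and Dnajb9, a DNAJ protein of the endoplasmic reticulum, had differences between -0.08 and 0.17 over the 3 comparisons. The summed intensity of the 11 DNAJ genes was 20951 to 21115 in C57BL/6, 19808 to 19916 in AKR/N and 18318 to 19460 in MRL/MpJ.

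Markers of round spermatids, the haploid cells after meiosis, were lower in the same strain. Of 15 round spermatid marker genes, 6 were lower and 0 higher in MRL/MpJ than in C57BL/6, 7 were lower and 0 higher than in AKR/N, and 0 were called between AKR/N and C57BL/6 by limma (0 at an unadjusted p under 0.05). Their summed intensity was 18721 to 19242 in MRL/MpJ, 21410 to 23005 in C57BL/6 and 22452 to 22890 in AKR/N. Of 15 elongating spermatid markers, 3 were lower and 0 higher in MRL/MpJ than in C57BL/6, with sums of 72991 to 79910 in MRL/MpJ and 83527 to 88583 in C57BL/6. Against AKR/N, 2 were lower and 0 higher in MRL/MpJ, and the sums overlapped (78740.5 to 83212 in AKR/N). In AKR/N against C57BL/6, 1 was higher and 1 lower. Of all genes, 6.12% were lower in MRL/MpJ than in C57BL/6 and 5.07% lower than in AKR/N. Spermatocyte markers were called in both directions, 2 higher and 4 lower of 15 in MRL/MpJ against C57BL/6. The part of these cell populations in the lower Dnajb4, Dnajb7 and Dnajc5b was not tested. In whole tissue, fewer cells of a type and less RNA per cell cannot be told apart.

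**Figure D2:**
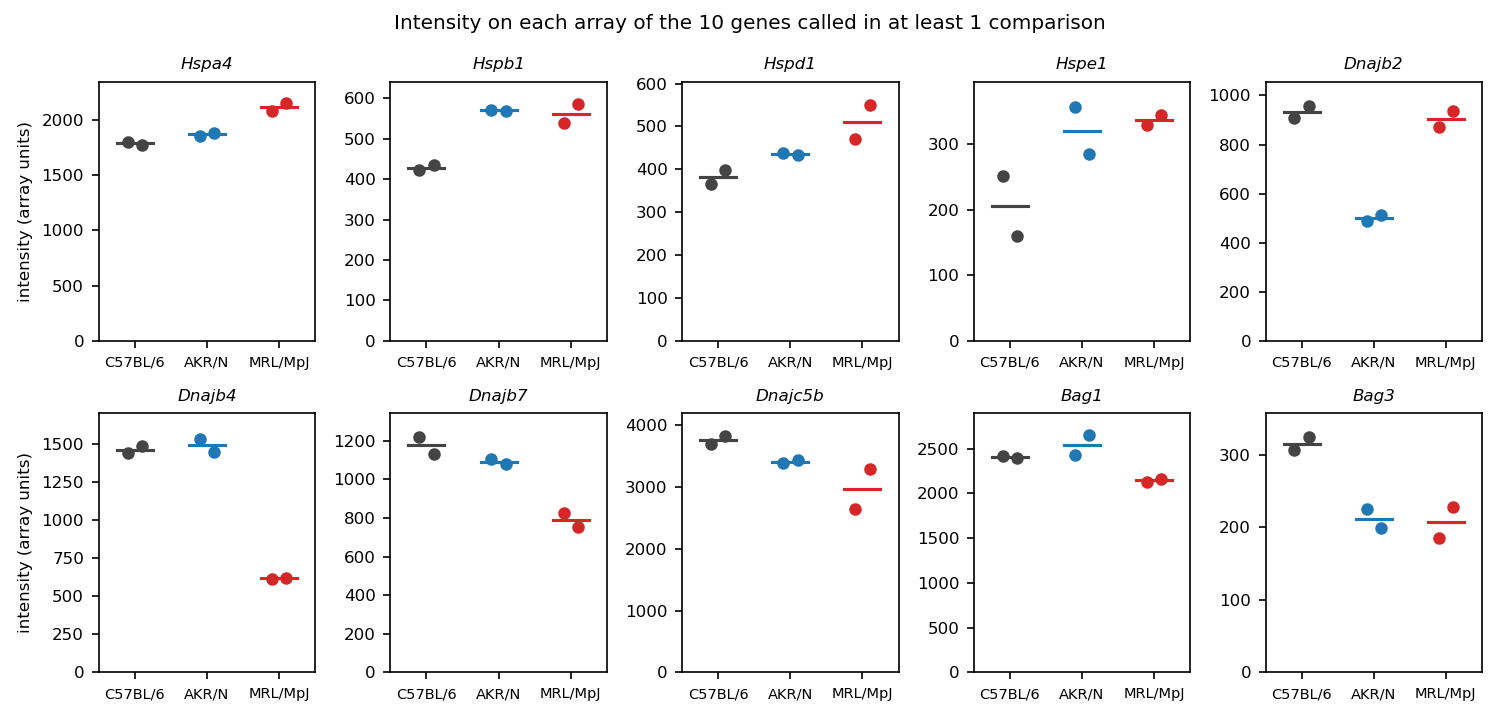
Intensity of each of the 10 called chaperone genes by strain, with 1 point per mouse, 2 mice a strain, and a bar at their mean. For Dnajb4 both MRL/MpJ mice are set apart from all others, for Dnajb2 both AKR/N mice are, and for Bag3 both C57BL/6 mice are, while Bag1, Hspa4 and Dnajc5b show smaller gaps.

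The mitochondrial chaperonin genes Hspd1 (HSP60) and Hspe1 (HSP10), which form the folding chamber and its lid in the mitochondrial matrix, were higher in MRL/MpJ than in C57BL/6. They lie head to head on chromosome 1 and share a promoter region, so their promoter sequence is shown before the values. RefSeq promoter windows of 300 bases, 250 before the annotated start and 50 after it, were found for 34 of the 40 genes (46 windows, GRCm38.p6). The windows were searched on both strands for a run of 3 heat shock element units, GAANNTTCNNGAA or TTCNNGAANNTTC. Such a run was present in 6 of the 46 windows, beside 0.603% of all 32851 windows of the same length. These windows belong to 4 of the 34 genes, Hspd1, Hspe1, Dnajb6 and Hsph1, beside 179 of all 27025 genes with a window. Overlapping windows hold the same run, as described below, so the 6 windows are not separate finds. The windows below are those of Hspe1 (chr1:55087898-55088197, plus strand), Dnajb6 (chr5:29735648-29735947, plus strand) and Hsph1 (chr5:149636287-149636586, minus strand), 5′ to 3′, with the matched run in capitals.
Hspe1: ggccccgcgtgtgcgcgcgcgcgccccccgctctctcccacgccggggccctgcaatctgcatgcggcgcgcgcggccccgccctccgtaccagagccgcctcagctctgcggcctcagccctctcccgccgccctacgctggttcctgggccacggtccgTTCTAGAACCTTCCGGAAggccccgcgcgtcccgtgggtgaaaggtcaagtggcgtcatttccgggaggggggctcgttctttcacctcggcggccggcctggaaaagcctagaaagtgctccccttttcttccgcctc
Dnajb6: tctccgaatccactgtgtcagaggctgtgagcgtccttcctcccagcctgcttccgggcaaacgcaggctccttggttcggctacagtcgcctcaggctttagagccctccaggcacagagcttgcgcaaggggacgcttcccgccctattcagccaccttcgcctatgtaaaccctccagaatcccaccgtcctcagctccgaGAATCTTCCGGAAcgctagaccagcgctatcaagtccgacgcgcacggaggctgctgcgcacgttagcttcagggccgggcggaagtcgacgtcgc
Hsph1: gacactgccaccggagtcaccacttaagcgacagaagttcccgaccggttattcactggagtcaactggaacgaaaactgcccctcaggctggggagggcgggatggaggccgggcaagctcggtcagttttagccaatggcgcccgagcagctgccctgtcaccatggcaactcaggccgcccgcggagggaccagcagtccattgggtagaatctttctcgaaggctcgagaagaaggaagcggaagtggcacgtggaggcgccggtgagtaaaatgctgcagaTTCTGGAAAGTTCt
In the Hspe1 window 2 overlapping matches form a run of 18 bases that starts at position -89 from the annotated start. The window of Hspd1 (chr1:55087883-55088182, minus strand) covers nearly the same bases from the other strand and holds the same run, there at position -144 from the start of Hspd1. The runs of Dnajb6 and Hsph1 are 13 bases long and start at positions -46 and 36. Both genes have another window, not shown, in which the same run starts at positions -127 and 15. A match in letters is a description and shows neither a bound site nor a cause of any value here. Of the 4 genes, Hspd1 and Hspe1 were called and Dnajb6 and Hsph1 were not. A looser search for 2 units matched 15 of the 34 genes, in 17 windows of the 46, beside 15.1% of all windows.

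Hspd1 was measured at 366 and 398 in the C57BL/6 mice, 437 and 432 in the AKR/N mice and 469.8 and 551 in the MRL/MpJ mice. Every MRL/MpJ and AKR/N mouse was above both C57BL/6 mice, the MRL/MpJ mice the highest. The difference between MRL/MpJ and C57BL/6 was 0.40 (SE 0.0956, adjusted p = 0.0242), and that between AKR/N and C57BL/6 was 0.18 (adjusted p = 0.288). The first was no longer called without C57BL/6 replicate 1 (adjusted p = 0.111) or MRL/MpJ replicate 2 (adjusted p = 0.183).

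Hspe1 was measured at 251 and 160.4 in the C57BL/6 mice, 356 and 284 in the AKR/N mice and 328 and 344 in the MRL/MpJ mice. The C57BL/6 mice were both below the other mice but far from each other, and AKR/N and MRL/MpJ overlapped. MRL/MpJ was higher than C57BL/6 by 0.70 (SE 0.172, adjusted p = 0.0273) and AKR/N by 0.62 (adjusted p = 0.0455). A second probe set (1422579_at) gave 0.63 (adjusted p = 0.0226) and 0.70 (adjusted p = 0.0139), calls lost without C57BL/6 replicate 1, MRL/MpJ replicate 1 or MRL/MpJ replicate 2 (adjusted p from 0.101 to 0.121) and without C57BL/6 replicate 1 or AKR/N replicate 1 (adjusted p from 0.0795 to 0.122). The MRL/MpJ call was lost without C57BL/6 replicate 2 (adjusted p = 0.139), MRL/MpJ replicate 1 (0.102) or MRL/MpJ replicate 2 (0.13), and the AKR/N call was lost without any 1 array other than C57BL/6 replicate 1 (adjusted p from 0.0645 to 0.275). Without C57BL/6 replicate 2 the differences of Hspe1 were 0.40 in MRL/MpJ and 0.32 in AKR/N. The AKR/N call was lost as well under quantile normalization (adjusted p = 0.0513) and with 1 in place of 16 as the added constant (adjusted p = 0.0558).

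The cytosolic chaperonin TRiC, which folds actin and tubulin, has 4 subunits on the list. Tcp1, Cct2, Cct4 and Cct5 were called in no comparison by the probe set used. Tcp1 was measured at 6413 and 7002 in the C57BL/6 mice, 6111 and 6562 in the AKR/N mice and 5972 and 6937 in the MRL/MpJ mice, and Cct4 at 3237 and 3310.1 (C57BL/6), 3312 and 3462 (AKR/N) and 3331 and 3226 (MRL/MpJ). The strains overlapped or lay close together in both. The largest difference among the 4 subunits was that of Cct2, -0.19 in MRL/MpJ against C57BL/6 (adjusted p = 0.105, 95% interval -0.34 to -0.04). The probe sets of Cct4 disagreed, because 1456082_x_at was lower in MRL/MpJ (-0.66, adjusted p = 0.0048) and AKR/N (-0.60, adjusted p = 0.0082) than in C57BL/6. The AKR/N call of this probe set was lost without C57BL/6 replicate 1 or AKR/N replicate 2 (adjusted p from 0.0583 to 0.0833). Another (1415867_at) was lower in AKR/N than in C57BL/6 (-0.22, adjusted p = 0.036) and higher in MRL/MpJ than in AKR/N (0.23, adjusted p = 0.0352). Both of these calls were lost without any 1 array of the strains compared (adjusted p from 0.0905 to 0.179 and from 0.0779 to 0.20).

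Among the 4 small heat shock proteins, which hold unfolded proteins without using ATP, Hspb1 (HSP25 in the mouse) was called. Its intensity was 422 and 435 in the C57BL/6 mice, 572 and 568 in the AKR/N mice and 539 and 586 in the MRL/MpJ mice. The C57BL/6 mice were the lowest and did not overlap the others, which overlapped each other. Hspb1 was higher by 0.38 in MRL/MpJ (SE 0.0800, adjusted p = 0.0131) and by 0.40 in AKR/N (adjusted p = 0.0101). Its other probe set (1425964_x_at) gave 0.10 (adjusted p = 0.641) and 0.49 (adjusted p = 0.0152), the latter lost without C57BL/6 replicate 1 or AKR/N replicate 2 (adjusted p from 0.0797 to 0.144). With the mean of both probe sets the MRL/MpJ difference of 0.24 was not called (adjusted p = 0.131). The call in MRL/MpJ was lost without C57BL/6 replicate 1 (adjusted p = 0.0559) or MRL/MpJ replicate 2 (0.11), and that in AKR/N without AKR/N replicate 1 (0.071) or 2 (0.0692).

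Leydig cells, the steroid-producing cells between the tubules, had higher marker levels in the same strains as Hspb1 and Hspe1. Of 6 Leydig cell marker genes, 4 were higher and 0 lower in MRL/MpJ than in C57BL/6, and likewise 4 and 0 in AKR/N. Their summed intensity was 3422 to 3553 in C57BL/6, 5591 to 6092 in AKR/N and 5663 to 5839 in MRL/MpJ. Of 13 Sertoli cell markers, 0 were called by limma in MRL/MpJ against C57BL/6 (0 at an unadjusted p under 0.05), and 3 were higher and 1 lower in AKR/N. Among 11 macrophage markers, 1 was higher and 1 lower in MRL/MpJ, and 1 was higher and 0 lower in AKR/N. Macrophage sums were 1357 to 1492 in C57BL/6, 1467 to 1602 in AKR/N and 1755 to 1892 in MRL/MpJ. Over all genes, 6.1% were higher and 6.12% lower in MRL/MpJ than in C57BL/6, and 6.39% and 5.5% in AKR/N. The part of these cells in the levels of Hspb1, Hspe1 and Hspd1 was not tested.

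Hspb9, a small heat shock protein of male germ cells, was measured at 4051 and 3904 in the C57BL/6 mice, 4398 and 4353 in the AKR/N mice and 3919.6 and 4190.4 in the MRL/MpJ mice. MRL/MpJ and C57BL/6 differed by 0.03 (95% interval -0.10 to 0.16). Hspb6, known from muscle, was not called (0.27 in MRL/MpJ against C57BL/6, adjusted p = 0.0965).

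Hspb8, which forms a complex with Bag3 in chaperone-assisted autophagy, gave different readings by probe set and was singled out after its values were seen. Its brightest probe set (1417014_at) averaged 38.4 ± 1.67 in MRL/MpJ, 39.5 ± 2.88 in AKR/N and 39.8 ± 1.68 in C57BL/6 and was not called. A second (1456434_x_at) read 4.31 and 4.13 in the C57BL/6 mice, 49.2 and 42.5 in the AKR/N mice and 42.7 and 48.2 in the MRL/MpJ mice. The third one (1417013_at) read 3.93 and 10.7 (C57BL/6), 36.7 and 35.5 (AKR/N) and 48.3 and 32.3 (MRL/MpJ). In both of the latter the C57BL/6 mice were far below the others, below the 40th percentile of their array, so these probe sets passed the filter only through the other 2 strains. No test is given for these 2 probe sets, because their entry rested on the strains in which they were bright.

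**Figure D3:**
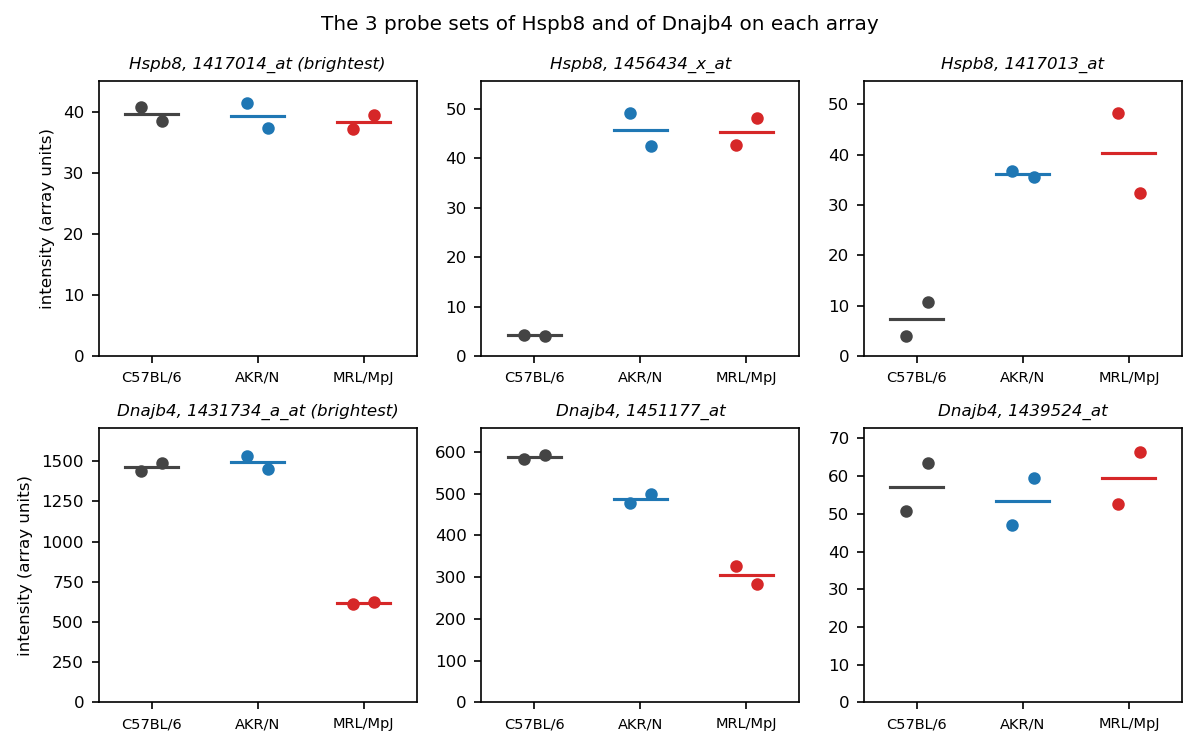
Intensity of every probe set of Hspb8 and Dnajb4 by strain on a linear axis, with 1 point per mouse, 2 mice a strain. The probe sets of Hspb8 disagree, since 1417014_at has means of 38.4 to 39.8 in all strains and the other 2 are far lower in C57BL/6, whereas 2 of the 3 probe sets of Dnajb4 are lower in MRL/MpJ.

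By limma's test 0 of the 9 HSP70 genes were called in any comparison, while 1, 2 and 1 had an unadjusted p under 0.05 in MRL/MpJ against C57BL/6, AKR/N against C57BL/6 and MRL/MpJ against AKR/N. Of all 14461 tested genes, 4034, 3855 and 3539 had such a p in the same order. Under quantile normalization Hspa2 was called in MRL/MpJ against AKR/N. Hspa2, the HSP70 protein of meiotic spermatocytes that meiosis in the male requires, was measured at 2858 and 2893 in the C57BL/6 mice, 2652 and 2633 in the AKR/N mice and 2977 and 2987 in the MRL/MpJ mice. The MRL/MpJ mice were above the AKR/N mice (difference 0.17, adjusted p = 0.101), and MRL/MpJ differed from C57BL/6 by 0.05 (95% interval -0.07 to 0.18). Hspa5, the HSP70 protein of the endoplasmic reticulum known as BiP, was measured at 2441 and 2581 (C57BL/6), 2360.3 and 2548 (AKR/N) and 2282 and 2725 (MRL/MpJ), with overlapping strains and a difference of -0.01 (95% interval -0.20 to 0.18) between MRL/MpJ and C57BL/6. Another probe set of Hspa5 (1427464_s_at) was lower in MRL/MpJ than in C57BL/6 (-0.37, adjusted p = 0.0091) and AKR/N (-0.32, adjusted p = 0.0279), so the probe sets disagreed. These calls were lost without C57BL/6 replicate 2 or MRL/MpJ replicate 2 (adjusted p from 0.0591 to 0.0747) and without AKR/N replicate 1, AKR/N replicate 2, MRL/MpJ replicate 1 or MRL/MpJ replicate 2 (adjusted p from 0.0566 to 0.236). Hspa1l, a germ cell HSP70 close in sequence to the heat-inducible forms, averaged 1901 ± 20.9 (C57BL/6), 1902 ± 55.5 (AKR/N) and 1876 ± 60.5 (MRL/MpJ), and MRL/MpJ and C57BL/6 differed by -0.02 (95% interval -0.16 to 0.12). The constitutive Hspa8 and the mitochondrial Hspa9 differed by 0.03 and 0.03 between MRL/MpJ and C57BL/6 and were not called.

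Hspa1a and Hspa1b, the heat-inducible HSP70 genes and near-identical copies of each other whose signals an array may not separate, were dim. Hspa1a was measured at 62.9 and 78.8 in the C57BL/6 mice, 75.5 and 69.7 in the AKR/N mice and 75.0 and 57.9 in the MRL/MpJ mice, and all strains overlapped. Hspa1b averaged 48.3 ± 2.18 (C57BL/6), 70.4 ± 4.48 (AKR/N) and 74.4 ± 16.9 (MRL/MpJ). Its differences from C57BL/6 were 0.48 in MRL/MpJ (adjusted p = 0.106, 95% interval 0.11 to 0.85) and 0.43 in AKR/N (adjusted p = 0.152). The other probe sets of Hspa1b had the same sign and were not called either. They gave 0.49 (1427127_x_at) and 0.40 (1427126_at) in MRL/MpJ, and 0.29 and 0.48 in AKR/N. Hspa13, an HSP70 protein of the endoplasmic reticulum, and Hspa14, which works at the ribosome, were not called either, with -0.36 for Hspa14 in AKR/N against C57BL/6 (adjusted p = 0.0876).

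Of the 5 measured HSP90 and HSP110 genes, Hspa4 was called. This HSP110 protein, which exchanges the nucleotide of HSP70, was measured at 1803 and 1773 in the C57BL/6 mice, 1852 and 1884 in the AKR/N mice and 2079.6 and 2153 in the MRL/MpJ mice. Both MRL/MpJ mice were above all others. MRL/MpJ was higher than C57BL/6 by 0.24 (SE 0.0606, adjusted p = 0.0299), a call lost when any 1 of the 6 arrays was left out (adjusted p from 0.0579 to 0.152) and after centring the arrays on their medians (adjusted p = 0.0695). The mean of its 3 tested probe sets gave 0.09 (adjusted p = 0.641). Hspa4l, its germ cell relative needed for normal sperm development, was measured at 5675 and 6198 (C57BL/6), 5268 and 5484 (AKR/N) and 5079.9 and 5687 (MRL/MpJ), and its difference between MRL/MpJ and C57BL/6 was -0.14 (95% interval -0.30 to 0.01). Hsp90aa1, the inducible cytosolic HSP90 that male meiosis needs, was measured at 5787 and 5904 (C57BL/6), 5691 and 5624 (AKR/N) and 5779 and 6182 (MRL/MpJ) and differed by 0.03 (95% interval -0.09 to 0.16). Hsp90b1, the HSP90 protein of the endoplasmic reticulum, was not called (0.23 in MRL/MpJ against C57BL/6, adjusted p = 0.0671), and neither was the HSP110 gene Hsph1 (-0.18, adjusted p = 0.298).

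Among the regulators and co-chaperones, Bag3 was lower in MRL/MpJ and AKR/N than in C57BL/6. Bag3 exchanges the nucleotide of HSP70, directs clients to autophagy and is itself a heat shock factor target. It was measured at 307 and 324 in the C57BL/6 mice, 225 and 199 in the AKR/N mice and 186 and 229 in the MRL/MpJ mice. The C57BL/6 mice were above all others, and AKR/N and MRL/MpJ overlapped. The differences were -0.58 in MRL/MpJ (SE 0.117, adjusted p = 0.0107) and -0.54 in AKR/N (adjusted p = 0.0145). The first was lost without C57BL/6 replicate 2 (adjusted p = 0.0674) or MRL/MpJ replicate 1 (0.0963), and the second without C57BL/6 replicate 2 (0.0934) or AKR/N replicate 2 (0.122).

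Bag1, a nucleotide exchange factor that links HSP70 to the proteasome, was measured at 2412 and 2396 in the C57BL/6 mice, 2429 and 2657 in the AKR/N mice and 2131 and 2158 in the MRL/MpJ mice. The MRL/MpJ mice were the lowest and overlapped no other strain. MRL/MpJ was lower than AKR/N, with a difference of -0.24 (SE 0.064, adjusted p = 0.0473), which was lost when any 1 of the 6 arrays was left out (adjusted p from 0.0596 to 0.342), under quantile normalization (0.0672) and with 1 as the added constant (0.0508). Bag6, a chaperone of tail-anchored proteins that spermatogenesis needs, was measured at 1557 and 1476 (C57BL/6), 1526 and 1498 (AKR/N) and 1370.5 and 1495 (MRL/MpJ) and was not called. Neither were Stip1, which joins HSP70 to HSP90 (difference -0.02 between MRL/MpJ and C57BL/6, 95% interval -0.20 to 0.17), and Hsf2, a heat shock factor active in spermatogenesis. The probe set of Hsf2 was dim at means of 14.2 ± 1.38 in MRL/MpJ, 14.6 ± 5.08 in AKR/N and 20.8 ± 8.41 in C57BL/6, and its 95% interval between MRL/MpJ and C57BL/6, -0.90 to 0.37, was among the wider ones.

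The choice of probe set mattered for several genes. The 40 genes had 95 probe sets, of which 90 passed the filter. Of the genes, 17 had 1 probe set and 23 had several. Among the calls given for probe sets other than the one used, only that of Dnajb4 (1451177_at) against C57BL/6 remained without the variance trend. The rest were lost (limma adjusted p from 0.0742 to 0.308). Besides Hspa5 and Cct4, the probe set used was not called but another was in Hspa4l, where 1449010_at gave 0.30 in MRL/MpJ against AKR/N (adjusted p = 0.0267) and 1439093_at gave -0.48 in AKR/N against C57BL/6 (adjusted p = 0.0245), in Dnaja2, where 1417182_at gave 0.39 in MRL/MpJ against C57BL/6 (adjusted p = 0.0257), and in Dnajb1, where 1416755_at gave -0.34 in AKR/N against C57BL/6 (adjusted p = 0.0268). The calls of 1449010_at, 1439093_at and 1417182_at were lost without any 1 array of the strains compared (adjusted p from 0.074 to 0.175, 0.0556 to 0.169 and 0.0556 to 0.139). That of 1416755_at was lost without C57BL/6 replicate 2 or AKR/N replicate 1 (adjusted p from 0.171 to 0.218).

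Genes of the same pathways outside the 42 were read from 3 further lists. Of the calls named from them, only those of Dnajc2 against C57BL/6 and of Edem1 in AKR/N against C57BL/6 remained without the variance trend. The others were lost (limma adjusted p from 0.0649 to 0.246). Of 51 tested genes of other chaperones and co-chaperones, 4 were higher and 4 lower in MRL/MpJ against C57BL/6, 2 higher and 4 lower in AKR/N against C57BL/6, and 1 higher and 2 lower in MRL/MpJ against AKR/N. In all, 8, 6 and 3 of the 51 were called, beside 12.2%, 11.9% and 8.75% of all genes. The median differences were 0.07, 0.01 and 0.07, beside 0.01 over all genes in each. Dnajc2, a DNAJ protein that works at the ribosome, differed in all 3: its means were 1004 ± 68.0 in MRL/MpJ, 724 ± 13.7 in AKR/N and 1554 ± 30.0 in C57BL/6. It was lower than in C57BL/6, with differences of -1.09 in AKR/N (adjusted p = 7.02e-06) and -0.62 in MRL/MpJ (adjusted p = 0.000357). Dnajc7, which binds both HSP70 and HSP90, was higher than in C57BL/6 by 0.42 in MRL/MpJ (adjusted p = 0.00619) and 0.45 in AKR/N (adjusted p = 0.00405), the former lost without MRL/MpJ replicate 2 (adjusted p = 0.0601). Fkbp5, an HSP90 co-chaperone of steroid receptors, was higher in MRL/MpJ by 0.60 (adjusted p = 0.00449), a call lost on leaving out MRL/MpJ replicate 1 (0.0517). Dnajb13, an axonemal DNAJ protein of sperm, was lower in MRL/MpJ than in AKR/N, with a difference of -0.28 (adjusted p = 0.0213), a call lost without AKR/N replicate 1, AKR/N replicate 2, MRL/MpJ replicate 1 or MRL/MpJ replicate 2 (adjusted p from 0.0693 to 0.168).

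Of 24 tested genes of folding in the endoplasmic reticulum and the unfolded protein response, 4 were higher and 2 lower in MRL/MpJ against C57BL/6, 4 higher and 1 lower in AKR/N against C57BL/6, and 1 higher and 1 lower in MRL/MpJ against AKR/N. In all, 6, 5 and 2 of the 24 were called, beside 12.2%, 11.9% and 8.75% of all genes. The medians were 0.10, 0.09 and -0.01. Edem1 was higher in AKR/N (mean 151 ± 4.24) than in C57BL/6 (mean 84.4 ± 9.94) by 0.74 (limma adjusted p = 0.00489), a call kept under every alternative. It was also higher in MRL/MpJ (mean 128 ± 12.2) by 0.52 (adjusted p = 0.029). That call was lost without the dim filter (0.0531), without the variance trend (0.0921) and without any 1 array other than C57BL/6 replicate 2, with differences from 0.37 to 0.62. Pdia3, a disulfide isomerase of glycoproteins, was higher than in C57BL/6 (mean 664 ± 55.0) in MRL/MpJ (mean 904 ± 1.67, difference 0.44, adjusted p = 0.00536) and AKR/N (mean 909 ± 30.4, difference 0.45, adjusted p = 0.00491). The AKR/N call of Pdia3 was lost without AKR/N replicate 1 (adjusted p = 0.053). Its relative Pdia6 was lower, with differences of -0.38 in MRL/MpJ (adjusted p = 0.026) and -0.47 in AKR/N (adjusted p = 0.00881). These were lost without C57BL/6 replicate 2, MRL/MpJ replicate 1 or MRL/MpJ replicate 2 (adjusted p from 0.0793 to 0.156) and without C57BL/6 replicate 2 or AKR/N replicate 2 (adjusted p from 0.0776 to 0.0931). Pdilt, a testis-specific member of the same family needed for sperm function, was lower in MRL/MpJ than in AKR/N, with a difference of -0.49 (adjusted p = 0.00598), a call lost without AKR/N replicate 2 (0.0587) or MRL/MpJ replicate 2 (0.0604).

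Of 12 tested genes of heat shock factors and other stress-inducible genes, 2 were higher in MRL/MpJ against C57BL/6, 1 in AKR/N against C57BL/6 and 1 in MRL/MpJ against AKR/N, and 0 were lower in each. Of all genes, 6.1%, 6.39% and 3.68% were higher in these comparisons. The medians were 0.17, 0.12 and 0.06. Cirbp, an RNA-binding protein induced by cold, was higher in MRL/MpJ (mean 567 ± 12.2) than in C57BL/6 (mean 389 ± 38.9) by 0.53 (adjusted p = 0.00819), lost without C57BL/6 replicate 2 (0.0629) or MRL/MpJ replicate 1 (0.0626). Hsf5, a heat shock factor gene of spermatocytes, was higher in MRL/MpJ (mean 1703 ± 29.7) than in AKR/N (mean 1334 ± 50.9) by 0.35 (adjusted p = 0.0104), lost without AKR/N replicate 2 (0.111), MRL/MpJ replicate 1 (0.051) or MRL/MpJ replicate 2 (0.0769). Of 15 spermatocyte markers, 7 were higher and 1 lower in the same comparison, with sums of 25584 to 26751 in MRL/MpJ and 24345 to 24745 in AKR/N, and their part in the level of Hsf5 was not tested.

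**Figure D4:**
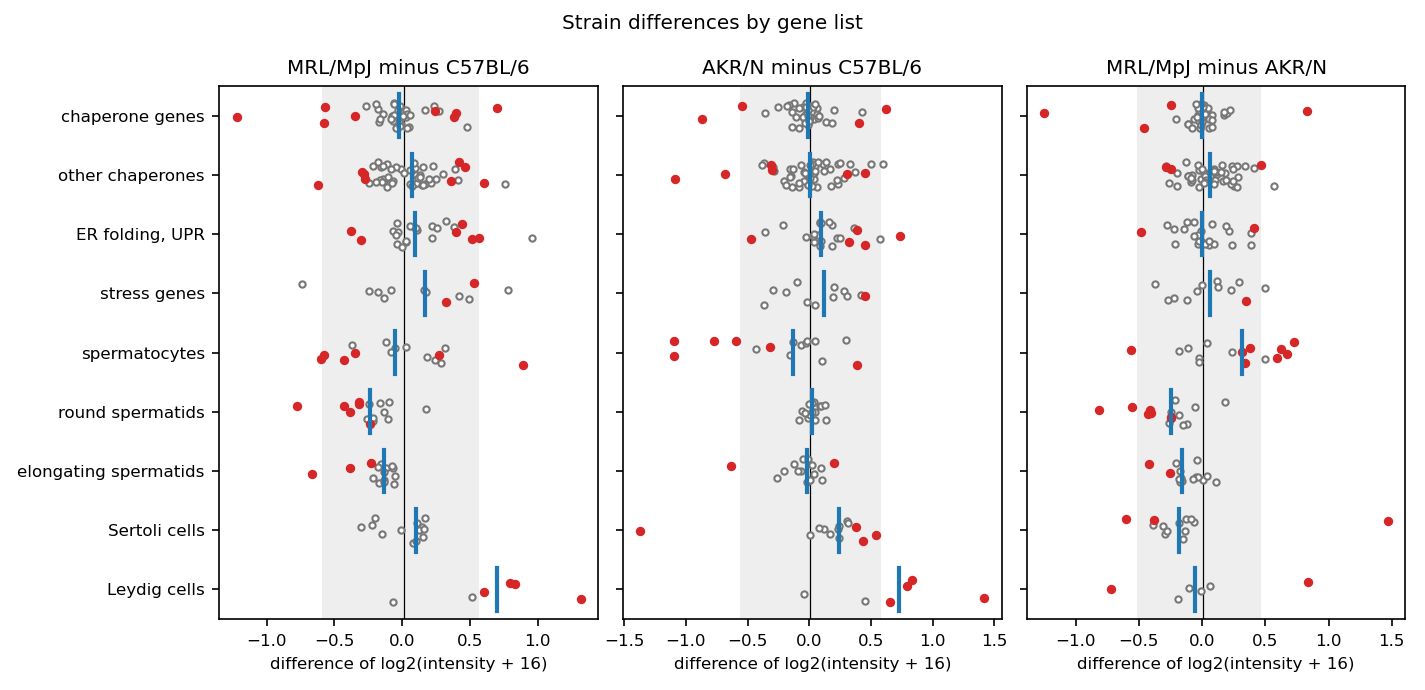
Differences in log2(intensity + 16) between strains for the genes of 9 lists, 1 point per gene and 1 panel per comparison, with called genes in red, list medians as blue bars, the median of all 14461 genes as a black line and their 5th to 95th percentiles as a grey band. The 40 chaperone genes have medians of -0.03, -0.01 and -0.00 in the 3 panels, round spermatid markers lie below 0 in MRL/MpJ (medians -0.24 and -0.25) and Leydig cell markers above 0 in both strains against C57BL/6 (0.70 and 0.72).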

How the data were processed

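The authors deposited linear intensity values per probe set, already scaled between arrays. Per the labels' protocols, Trizol-extracted RNA went through a one-cycle cDNA kit and was labelled with biotin. Neither the summary software nor detection calls are given in the sources used here. Scaling was kept. Of 45101 probe sets, 64 controls were left out, and the annotation gave 34945 probe sets 1 symbol, 932 several and 9160 none. Strain means of log2(intensity + 16) were fitted in R 4.3.3 by limma 3.58.1 (eBayes with trend after lmFit and contrasts.fit, 3 residual and 7.58 prior degrees of freedom), after tests on simulated data. With 2 arrays a strain, their number limits the precision.

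Genes and lists were chosen with earlier results of these data known. Array values were given for called chaperone genes and the 2 brightest of each family, and for the other pathway lists up to 6 called genes of the smallest adjusted p could be named. Deviations from strain means of mice with the same replicate number correlated at 0.0425 to 0.0493, so the numbers were not taken as pairs. Alternatives were another normalization, filter, pseudocount (1, 64), variance model, block, probe set summary, and leaving out each array.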

Additional observations from a re-analysis of the deposited data

How the results depend on the processing

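No chaperone call changed direction under any alternative run. Of the 16 calls over the 3 comparisons, 4 (Dnajb4 and Dnajb2, each in 2 comparisons) remained under every alternative and 6, with those of Dnajb7, without any 1 array. In MRL/MpJ against C57BL/6, AKR/N against C57BL/6 and MRL/MpJ against AKR/N in this order, 8, 4 and 4 chaperone genes were called. Leaving out 1 array gave 4 to 6, 1 to 4 and 3 to 4, and 1483 to 2545, 1290 to 2607 and 694 to 2191 probe sets in place of 2975, 2960 and 2052. Without the variance trend there were 1, 1 and 2 chaperone genes and 1212, 1138 and 421 probe sets. Without the filter on dim probe sets, which tests more probe sets, there were 5 chaperone genes in the first comparison, and 1327 probe sets in the third. The cause of the loss without the trend was not tested. The replicate number as a block gave 10, 5 and 4 chaperone genes and 3510, 3492 and 2549 probe sets. The labels do not say what mice of the same number share, and this was not tested. Some alternatives added calls: the block added Hsp90b1 and Cct2 in the first comparison and Cct2 in the second, quantile normalization Hspb9 in the second and Hspa2 and Hspa4 in the third, the mean of a gene's probe sets Hspb8 in the first and second (by the probe sets that passed the filter through MRL/MpJ and AKR/N only), and leaving out MRL/MpJ replicate 2 Dnajc5b in the third. Detection calls were not used, so a dim probe set could be recognised only by its intensity.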
